A study of Mus musculus with 8 samples.

Results

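Regulatory T cells restrain other T cells, and this section follows 10 genes that mark them or that switch activated T cells on and off: Foxp3, Ikzf2, Il2ra, Tnfrsf18, Tnfrsf4, Icos, Ctla4, Pdcd1, Lag3 and Tigit. They were chosen by name, and all 10 are among the 18835 genes with values, out of 56941 genes listed. RNA came from hearts of BALB/cAJcl males aged 10 weeks, in which immunization with cardiac myosin causes an autoimmune myocarditis. Of the 8 animals, 4 had been injected intraperitoneally with VEGF-C C156S, a variant of the lymphatic growth factor that acts through the receptor VEGFR-3, at 1 µg per day from day 7 to day 10, and 4 with PBS on the same days; hearts were taken in week 3. Both groups were immunized, so the comparison is between treated and untreated inflamed hearts, with no healthy heart beside them.

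FOXP3 is the transcription factor that defines regulatory T cells, and IKZF2 (Helios) is a partner factor found in many of them. These cells carry the IL-2 receptor alpha chain (Il2ra, CD25), which captures IL-2, and CTLA-4, which takes the ligands CD80 and CD86 away from the activating receptor CD28. GITR (Tnfrsf18), OX40 (Tnfrsf4) and ICOS are costimulatory receptors, high on regulatory T cells and raised on other T cells by activation, while PD-1 (Pdcd1), LAG-3 and TIGIT are inhibitory receptors that limit T cell activity, and blocking PD-1 or CTLA-4 in patients can set off myocarditis.

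Values are normalized counts, which are reads of a gene over a factor for its library. Fold changes are differences of group means on the deposited log2(normalized count + 4) scale, VEGF-C minus PBS, which understates the change of low genes. Libraries held 61713842 to 76803952 reads in PBS and 53679737 to 65230480 in VEGF-C, and a member had from 79 to 813 reads in a library. Markers of the labelled tissue, heart, were present: summed counts of 5 cardiomyocyte genes were between 2136048 and 3176542 in every library, and all 16 T cell markers were read in all 8 libraries. Of 18835 genes tested with limma, 15.7% passed an adjusted p of 0.05 (7.05% higher and 8.61% lower in VEGF-C), and the groups did not overlap in 23.0%. Among the 2213 genes whose mean count lay in the range of the members, 13.5% passed, 11.4% as lower. The direction of calls over all genes depended on scaling: 1328 were higher and 1621 lower, against 243 and 3572 when scaled by library totals; that scaling shifted the median gene by -0.19 on the log2 scale. The replicate numbers are those of the table's columns and tie to no animal. In bulk tissue, fewer cells of a type and less RNA per cell cannot be told apart.

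Of the 10 genes, Tnfrsf18 alone fell past the threshold in hearts of VEGF-C-treated animals, to 0.493 of the PBS level. The count of 1 in 10 is near the share of all genes called (15.7%). Pdcd1 was lower in all 4 VEGF-C libraries than in any PBS library without passing the test. Tnfrsf4, Ctla4 and Il2ra had negative fold changes with overlapping groups. Ikzf2, Icos, Lag3, Foxp3 and Tigit had smaller fold changes. The intervals of all members but Tnfrsf18 and Pdcd1 include 0. Across the set, 7 fold changes were negative and 3 positive, and 1408 of the 2213 genes in the same range of counts were negative too. The median of the set was -0.27, against 0.00 over all genes and -0.11 over genes in that range.

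**Figure D1:**
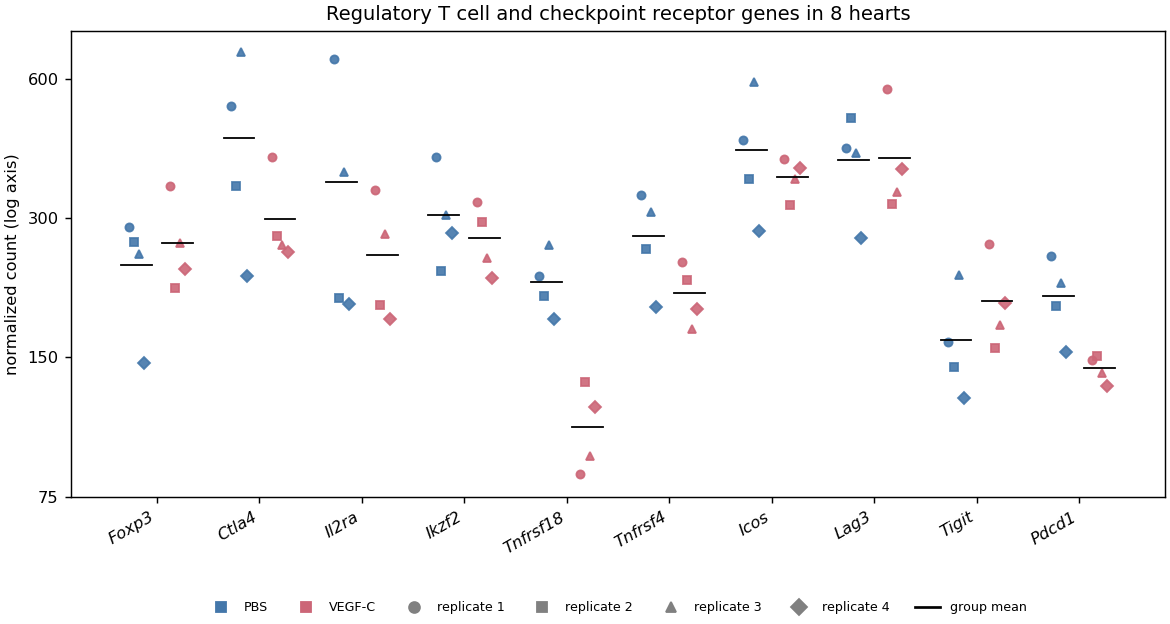
Normalized counts (log axis) of the 10 genes in each library, with 4 PBS (blue) and 4 VEGF-C (red) hearts, a symbol per replicate number and a black line at the group mean. The groups do not overlap for Tnfrsf18 and Pdcd1, and the PBS replicate 4 diamond is the lowest PBS point in 9 of the 10 genes.

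Tnfrsf18 (ENSMUSG00000041954) encodes GITR, a costimulatory receptor of the TNF receptor superfamily. It was read at 224, 204, 263 and 182 in PBS replicates 1 to 4 and 83.8, 132, 91.9 and 117 in VEGF-C replicates 1 to 4. Every VEGF-C heart lay below every PBS heart: the highest VEGF-C value was 132 and the lowest PBS value 182. Means were 218 ± 34.6 in PBS and 106 ± 22.5 in VEGF-C (SD, n = 4). On the log2 scale the difference was -1.02 ± 0.19 (SE), 95% interval from -1.44 to -0.60, and limma gave an adjusted p of 0.00726. The call held under all 15 alternatives, with fold changes between -1.21 and -0.92. In the authors' deposited table Tnfrsf18 has a log2 fold change of -1.04 with an adjusted p-value of 2.53e-05; that table puts 2 of the 10 genes below 0.05, Tnfrsf18 and Pdcd1, against 21.7% of all genes. The exons of Gm16008, a gene on the opposite strand, overlap those of Tnfrsf18 in the annotation. Gm16008 was read at 91.9, 122, 88.5 and 119.9 in PBS replicates 1 to 4 and 38.2, 46.8, 37.0 and 59.7 in VEGF-C replicates 1 to 4, and it fell too, by 1.16 on the log2 scale (SE 0.22, limma adjusted p = 0.0077). The libraries came from a kit that keeps strand, but no source used here gives the strand setting of the counting, so reads of the 2 genes cannot be told apart with certainty. There were 50.2 ± 15.4 Gm16008 counts per 100 of Tnfrsf18 in PBS and 43.0 ± 6.75 in VEGF-C (SD, n = 4).

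Tnfrsf4, the gene of the costimulatory receptor OX40, lies directly beside Tnfrsf18 on mouse chromosome 4 and is transcribed in the same direction. It was read at 336, 257, 309 and 193 in PBS replicates 1 to 4 and 241, 221, 172 and 191 in VEGF-C replicates 1 to 4. The groups overlapped, since PBS replicate 4 lay among the VEGF-C hearts, and the fold change of -0.38 ± 0.19 (SE) did not pass (limma adjusted p = 0.192, 95% interval from -0.80 to 0.04). Both genes can be compared within a library, where scaling has no part. Tnfrsf18 had 66.83, 79.09, 84.99 and 94.12 counts per 100 of Tnfrsf4 in PBS replicates 1 to 4 and 34.8, 60, 53.25 and 61.27 in VEGF-C replicates 1 to 4. Every VEGF-C ratio was below every PBS ratio, a log2 difference of -0.66. An exact permutation test (two-sided) then gives p = 0.0286, the smallest that 4 against 4 can give. This ratio was chosen after the values were seen, with Tnfrsf18 already called, so the p is no separate support. The share of all genes whose ratio to Tnfrsf4 parts the groups was not computed.

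The sequences before the start sites of Tnfrsf18, of its neighbour Tnfrsf4 and of Pdcd1 are shown because these genes had the 3 smallest p-values among the 10. They are the 250 bases before the RefSeq start in GRCm38.p6, another build than that of the counts, written 5′ to 3′ on the strand of the gene. Tnfrsf18 is at chr4:156026072-156026321, plus strand, Tnfrsf4 at chr4:156013445-156013694, plus strand and Pdcd1 at chr1:94052554-94052803, minus strand. Capitals mark letters of the motifs searched on both strands: the NFAT core GGAAA, the STAT motif TTCNNNGAA, the AP-1 motif TGANTCA, the RUNX motif TGTGGT, the TATA box TATAAA, the forkhead motif TGTTTAC and the NF-kappaB motif.
Tnfrsf18: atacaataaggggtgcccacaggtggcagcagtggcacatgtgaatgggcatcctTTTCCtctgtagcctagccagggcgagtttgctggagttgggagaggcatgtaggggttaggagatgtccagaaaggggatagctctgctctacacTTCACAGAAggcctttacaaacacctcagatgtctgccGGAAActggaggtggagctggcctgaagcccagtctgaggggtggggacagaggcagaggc
Tnfrsf4: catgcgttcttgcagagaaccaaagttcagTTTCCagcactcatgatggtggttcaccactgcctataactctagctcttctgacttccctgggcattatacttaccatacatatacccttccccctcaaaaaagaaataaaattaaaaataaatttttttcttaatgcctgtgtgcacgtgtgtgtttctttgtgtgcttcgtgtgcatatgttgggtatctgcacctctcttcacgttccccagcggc
Pdcd1: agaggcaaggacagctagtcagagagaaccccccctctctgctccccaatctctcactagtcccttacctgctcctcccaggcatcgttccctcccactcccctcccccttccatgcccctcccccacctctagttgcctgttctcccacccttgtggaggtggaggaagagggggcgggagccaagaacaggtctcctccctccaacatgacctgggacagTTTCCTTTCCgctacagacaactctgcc

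In Tnfrsf18 the capitals are 2 copies of GGAAA and 1 STAT motif that begins 99 bases before the start, in Tnfrsf4 1 copy of GGAAA, and in Pdcd1 2 adjoining copies that begin 28 bases before the start. GGAAA occurs in 55.6% of all 32851 RefSeq promoter windows of this length, and the STAT letters in 7.02%. Of the 10 genes, 7 have a promoter in the table, Foxp3 with 2, and all 8 windows hold GGAAA; the STAT letters are in those of Tnfrsf18 and 1 of Foxp3. The AP-1 and forkhead letters, found in 6.75% and 3.17% of all windows, are in none of the 8. These are matches of letters and do not show that a factor binds.

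Icos, the gene of a costimulatory receptor of the CD28 family, was read at 442, 364, 591 and 282 in PBS replicates 1 to 4 and 402, 319.6, 365 and 385 in VEGF-C replicates 1 to 4. The VEGF-C hearts lay close together, within the wide range of the PBS hearts. Its fold change of -0.14 ± 0.20 (SE) did not pass (limma adjusted p = 0.664, 95% interval from -0.59 to 0.30); it was 0.04 without PBS replicate 3 and -0.31 without PBS replicate 4.

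Among the inhibitory receptors, Pdcd1 (PD-1) was read at 249, 194, 217 and 154 in PBS replicates 1 to 4 and 148, 151, 139 and 130.4 in VEGF-C replicates 1 to 4. The VEGF-C values were all below the PBS values, and the gap was narrow, from 151 in the highest VEGF-C heart to 154 in PBS replicate 4. Groups that did not overlap with VEGF-C lower were seen in 11.6% of all genes. The fold change was -0.49 ± 0.17 (SE), 95% interval from -0.86 to -0.12, and the limma adjusted p of 0.0738 missed the threshold. It passed without PBS replicate 4 (limma adjusted p = 0.0398) and with library totals (0.0218), and the authors' deposited table gives it an adjusted p-value of 0.0384; over all 15 alternatives the limma adjusted p ran from 0.0218 to 0.155.

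Ctla4 was read at 524, 351, 684 and 224 in PBS replicates 1 to 4 and 406, 274, 262 and 253 in VEGF-C replicates 1 to 4. PBS replicates 1 and 3 were high and PBS replicate 4 was the lowest of all 8. The PBS values thus covered a 3.05-fold range and the VEGF-C values a 1.60-fold range. The fold change of -0.48 ± 0.31 (SE) did not pass (limma adjusted p = 0.307, 95% interval from -1.16 to 0.20); it was -0.77 without PBS replicate 4 and -0.24 without PBS replicate 3.

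Lag3, a receptor for MHC class II, was read at 425, 493, 415 and 272 in PBS replicates 1 to 4 and 569, 322, 342 and 382 in VEGF-C replicates 1 to 4. The group means were 401 ± 93.2 in PBS and 404 ± 113 in VEGF-C, with a fold change of 0.01 ± 0.22 (SE) (limma adjusted p = 0.99); the 95% interval ran from -0.48 to 0.49, a range that holds changes of that size in either direction. Tigit, whose product competes with CD226 for the ligand PVR, was read at 162, 143, 226 and 122 in PBS replicates 1 to 4 and 264, 157, 176 and 197 in VEGF-C replicates 1 to 4. It had the highest fold change of the 10, 0.28 ± 0.22 (SE), with overlapping groups and no pass (limma adjusted p = 0.401, 95% interval from -0.20 to 0.77); it was 0.14 without VEGF-C replicate 1 and 0.45 without PBS replicate 3.

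Foxp3 itself was read at 287, 266, 250.5 and 146 in PBS replicates 1 to 4 and 352, 212, 266 and 233 in VEGF-C replicates 1 to 4. PBS replicate 4 stood below the other 7 hearts, which lay between 212 and 352. The fold change of 0.18 ± 0.23 (SE) did not pass (limma adjusted p = 0.634, 95% interval from -0.34 to 0.69), and its sign changed without PBS replicate 4 (-0.04) and with library totals (-0.01). Exons of Ppp1r3f, Ccdc22 and Gm36995, on the opposite strand, overlap Foxp3 in the annotation, so its counts carry the same uncertainty about strand. Exons of Flicr overlap it on the same strand, where no strand setting separates reads. Of these 4 genes Ppp1r3f alone has values; it had 42.6 ± 11.7 in PBS and 31.3 ± 20.9 in VEGF-C normalized counts (SD, n = 4). Ikzf2 was read at 407, 231, 304 and 279 in PBS replicates 1 to 4 and 324, 294, 245 and 223 in VEGF-C replicates 1 to 4, with overlapping groups and a fold change of -0.15 ± 0.19 (SE) (limma adjusted p = 0.62, 95% interval from -0.57 to 0.27). It was -0.003 without PBS replicate 1 and -0.27 without PBS replicate 2. Exons of Gm29114, on the opposite strand and without values, overlap Ikzf2.

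Il2ra varied most between control hearts. It was read at 661, 202, 377 and 196 in PBS replicates 1 to 4 and 346, 195, 278 and 181 in VEGF-C replicates 1 to 4, a 3.37-fold range within PBS. PBS replicate 1 was far above the rest, and without it the fold change went from -0.38 ± 0.37 (SE) to -0.03 (limma adjusted p = 0.512 with all libraries and 0.958 without it; 95% interval from -1.20 to 0.44 with all).

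**Figure D2:**
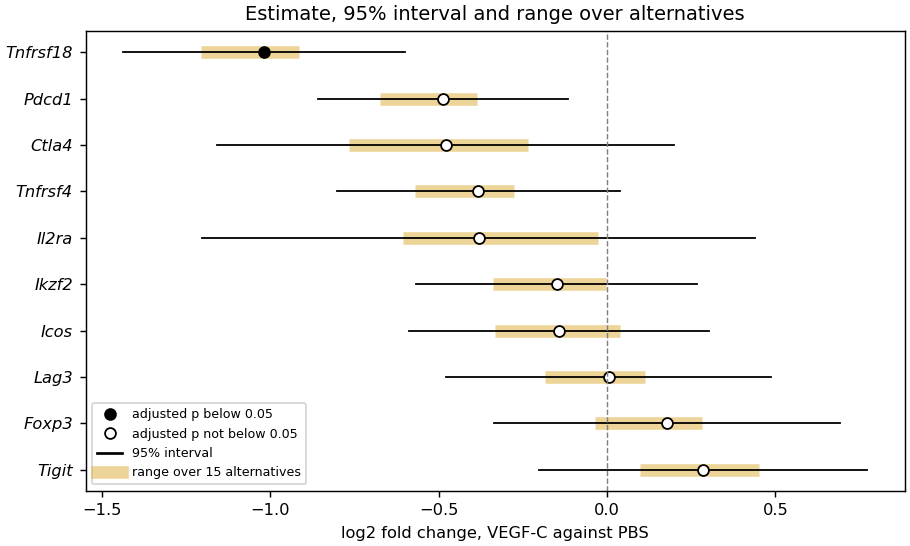
Log2 fold change of each gene, VEGF-C against PBS (point), with its 95% interval (line) and the range of the estimate over 15 alternatives (yellow band); a filled point passed an adjusted p of 0.05. Tnfrsf18 is the only filled point, and its interval ends at -0.60.

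The order of the hearts was alike in many of the 10 genes. PBS replicate 4 had the lowest PBS value in 9 of the 10, all but Ikzf2, while the highest PBS value was that of PBS replicate 1 in 5 genes and of PBS replicate 3 in 4. In VEGF-C, replicate 1 was highest in 8 genes; it was the lowest in 1, Tnfrsf18. Summed over the 10 genes, PBS hearts had 3718, 2704, 3637 and 2049.6 normalized counts and VEGF-C hearts 3136, 2277, 2337 and 2293. The PBS hearts thus spread on both sides of the VEGF-C hearts.

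Each gene was also set against the 4 Cd3 genes of the same library (Cd3d, Cd3e, Cd3g and Cd247, the signalling chains of the T cell receptor). Their sum was 1603, 1607, 2022 and 1295 normalized counts in PBS and 1811, 1508, 1581 and 1454 in VEGF-C, so the groups overlapped and PBS replicate 4 was again the lowest. Per 100 Cd3 counts, Tnfrsf18 had 14, 12.66, 12.99 and 14.02 in PBS replicates 1 to 4 and 4.625, 8.786, 5.811 and 8.055 in VEGF-C replicates 1 to 4. The PBS hearts were nearly equal on this scale: their SD on the log2 scale was 0.07, against 0.23 for the counts alone, and every VEGF-C heart was lower. The VEGF-C hearts were less alike on this scale, with an SD of 0.43 against 0.31 for the counts alone. The log2 difference of this ratio was -1.02.

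Pdcd1 and Tnfrsf4 were also lower in every VEGF-C heart on this scale. Pdcd1 had between 10.74 and 15.53 counts per 100 Cd3 counts in PBS and between 8.197 and 9.991 in VEGF-C, and Tnfrsf4 between 14.89 and 20.95 and between 10.91 and 14.64. Among all genes 6.56% had such ratios to the Cd3 sum that were lower in every VEGF-C heart and 1.81% ratios that were higher, 8.36% together; of the 10 genes 3 were lower and 0 higher. The same 3 parted the groups without Cd247 in the sum. The other 7 ratios overlapped: Foxp3 had 14.5 ± 3.20 counts per 100 Cd3 counts in PBS and 16.6 ± 2.23 in VEGF-C, and Tigit 9.90 ± 0.982 and 12.4 ± 1.96 (SD, n = 4). T cell markers outside the sum gave such ratios too. Cd2 and Zap70 were lower in every VEGF-C heart on this scale, and the others overlapped. Such a ratio is thus not particular to the 10 genes. No test was made of these ratios.

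**Figure D3:**
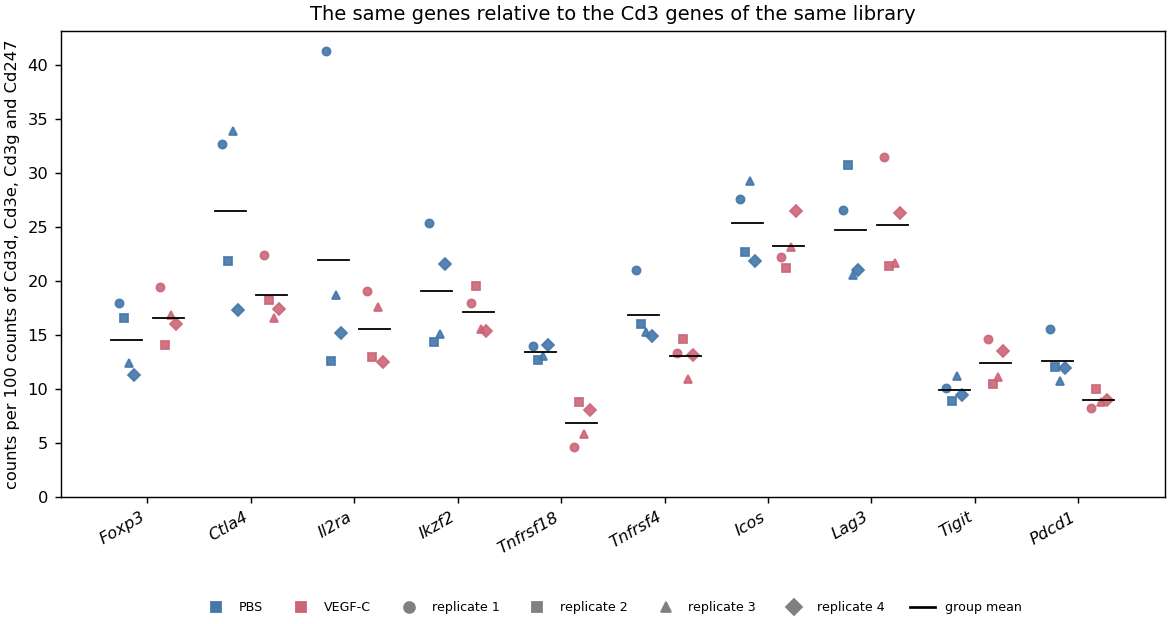
Counts of each gene per 100 counts of Cd3d, Cd3e, Cd3g and Cd247 in the same library, for 4 PBS (blue) and 4 VEGF-C (red) hearts, with black lines at the group means. The 4 PBS points of Tnfrsf18 lie between 12.66 and 14.02, and its VEGF-C points between 4.625 and 8.786.

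T cell markers gave the setting. Of 16, 1 passed, Cd247 (zeta chain), which fell by 0.54 (limma adjusted p = 0.0449); that call was lost with limma-voom and without any 1 library except PBS replicate 2 (limma adjusted p up to 0.112). The median of the list was -0.16, with 12 fold changes negative and 4 positive. Cd4, Cd2 (-0.37) and Zap70 (-0.43) were lower at an unadjusted p below 0.05 (limma) and did not pass. Cd3e had 276 ± 73.9 in PBS and 361 ± 68.5 in VEGF-C (0.40 ± 0.21 (SE)), Cd4 736 ± 71.1 in PBS and 567 ± 100.5 in VEGF-C (-0.39 ± 0.14 (SE)) and Cd8a 79.3 ± 30.8 in PBS and 96.0 ± 73.8 in VEGF-C (0.05 ± 0.47 (SE)), in normalized counts (SD, n = 4) with the log2 fold change, and none passed (limma adjusted p = 0.211, 0.0783 and 0.956). Cd4 did pass with library totals (limma adjusted p = 0.0168) and without VEGF-C replicate 1 (0.0417). Cd8a reached 202 counts in VEGF-C replicate 3, against 31.2 to 122 in the other 7 hearts.

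The ligands and partner receptors of the 10 genes did not pass, 0 of 12 with values (median -0.02; limma, 1 of them lower and 1 higher at an unadjusted p below 0.05, Cd274 and Nectin3). Cd274, which encodes the PD-1 ligand PD-L1, was read at 3998, 955, 1378 and 1588 in PBS replicates 1 to 4 and 1034, 778, 654 and 917 in VEGF-C replicates 1 to 4. PBS replicate 1 was the highest by far, and the fold change was -1.02 ± 0.36 (SE) (limma adjusted p = 0.0777); it passed with library totals (0.0357) and without PBS replicate 2 (0.0356). Without PBS replicate 1 it was -0.61 (limma adjusted p = 0.0552), and over the alternatives the limma adjusted p ran from 0.0356 to 0.175. Tnfsf18, the ligand of GITR, had few counts: 104, 7.80, 38.5 and 10.5 in PBS replicates 1 to 4 and 46.7, 18.2, 24.6 and 30.9 in VEGF-C replicates 1 to 4, a fold change of 0.13 ± 0.64 (SE). Its values overlapped, with the highest and the lowest both in PBS hearts. Tnfsf4, the ligand of OX40, had no values. The CD28 family partners Cd28 (0.05 ± 0.24), Cd80 (-0.16 ± 0.14), Cd86 (-0.07 ± 0.18) and Icosl (-0.12 ± 0.18) and the TIGIT ligand Pvr (0.07 ± 0.10) did not pass (log2 fold change ± SE).

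Of 14 other checkpoint genes with values 3 passed, all lower, with a list median of -0.44. Btla (-0.74, limma adjusted p = 0.0531) and Cd200r1 (-0.46, limma adjusted p = 0.0717) did not pass, but every VEGF-C heart lay below every PBS heart. Tnfrsf14, which encodes HVEM, the ligand of BTLA, went down from 721 ± 174 to 251 ± 54.8 normalized counts (n = 4, ± SD); it fell by 1.51 on the log2 scale (SE 0.20, limma adjusted p = 0.00155). Cd40, the costimulatory receptor of antigen-presenting cells, fell by 0.54, and Cd244a, a receptor of NK and T cells, by 0.82. The call of Cd40 was lost when replicate 2, 3 or 4 of VEGF-C was left out (largest limma adjusted p = 0.0756). That of Cd244a was lost when replicate 3 or 4 of PBS, or 1, 3 or 4 of VEGF-C, was left out (largest limma adjusted p = 0.0732).

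In the IL-2 receptor axis 1 gene of 11 fell and 1 rose (median -0.02). Jak3, the kinase bound to the common gamma chain, went down from 5533 ± 472 to 2890 ± 213 normalized counts (n = 4, ± SD); it fell by 0.94 on the log2 scale (SE 0.08, limma adjusted p = 0.000198). Cish, a STAT5 target that restrains cytokine signalling, rose by 0.59 (limma adjusted p = 0.0157), and did not pass with library totals (0.0772). The chains that pair with CD25, Il2rb (-0.34 ± 0.24) and Il2rg (-0.23 ± 0.14), did not pass. With 1 library left out, Il2rb ranged from -0.49 (VEGF-C replicate 1) to -0.12 (PBS replicate 1) and Il2rg from -0.35 (VEGF-C replicate 1) to -0.14 (VEGF-C replicate 4).

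Of 15 regulatory T cell effector and tissue genes 1 rose and 1 fell (median -0.01). Tgfb1, which encodes a cytokine made by many cells of the heart, rose from 2803 ± 292 to 4076 ± 220 normalized counts (SD, n = 4; 0.54 ± 0.09 (SE), limma adjusted p = 0.00372). Il1rl1, the IL-33 receptor ST2 of tissue regulatory T cells and other cells, fell by 0.70 (limma adjusted p = 0.0299), a call lost when replicate 2, 3 or 4 of PBS, or 1 or 3 of VEGF-C, was left out (largest limma adjusted p = 0.0693). Il10 was low in both groups, 37.4 ± 12.4 in PBS and 33.2 ± 20.3 in VEGF-C normalized counts, and did not pass. Of 12 transcription factors that work with or upstream of FOXP3, 1 passed: Irf4, also a factor of B and plasma cells, fell by 0.94 (561 ± 127 in PBS and 287 ± 28.2 in VEGF-C normalized counts, SD, n = 4; limma adjusted p = 0.00461), and the list median was -0.09.

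**Figure D4:**
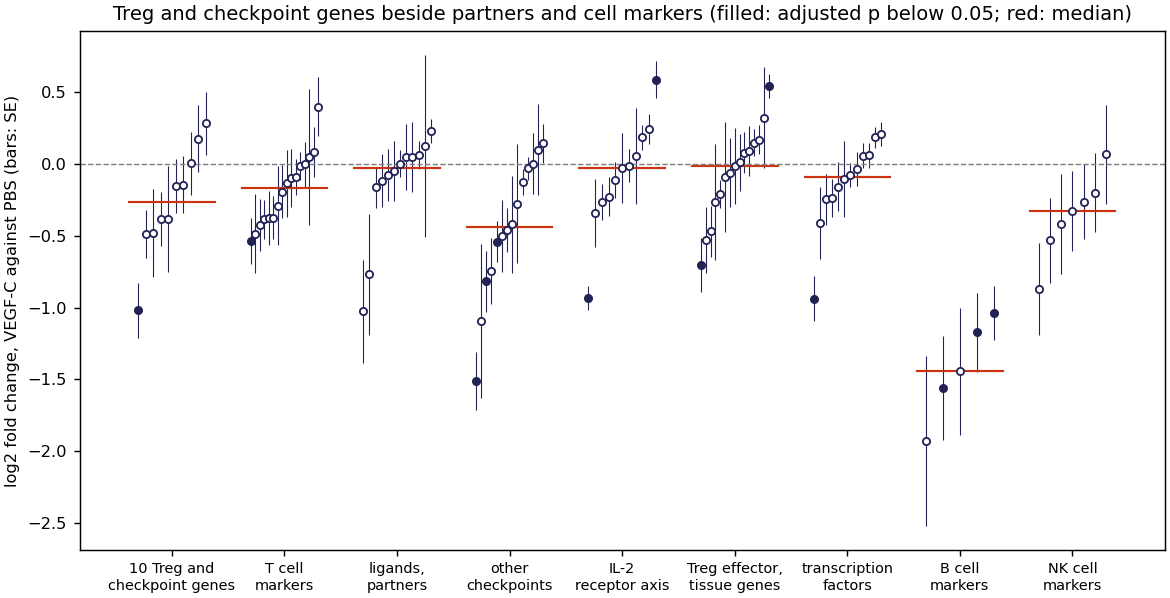
Log2 fold change (VEGF-C against PBS) of the genes in each list (1 B cell gene is not shown), with its SE as a bar; filled points passed an adjusted p of 0.05 and red lines are list medians. The median of the 10 Treg and checkpoint genes (-0.27) lies between those of the T cell markers (-0.16) and the NK cell markers (-0.33). That of the B cell markers is lower (-1.44). Tnfrsf18 (-1.02) lies below all T cell markers (-0.54 to 0.40).

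Markers of other cell types were read in the same hearts. Of 5 B cell markers 3 passed, all lower: Cd79a fell by 1.56, Cd79b fell by 1.17 and Cd22 fell by 1.04 on the log2 scale. Ms4a1 (-1.44, limma adjusted p = 0.0512) and Pax5 (-1.93, limma adjusted p = 0.0524) did not pass, but their groups did not overlap either. Summed counts of the 5 B cell markers were 2270 to 3704 in PBS and 658 to 1622 in VEGF-C, with none at 0 in any library. NK cell markers had 0 of 7 past the threshold (limma; 1 at an unadjusted p below 0.05, Ncr1), and sums of 756 to 1647 and 669 to 1010. Dendritic cell markers had 0 of 6 (1 at an unadjusted p below 0.05, Flt3), with sums of 3623 to 5986 and 2572 to 3771. Neutrophil markers had 2 of 4, Csf3r and Mmp9, both lower, with sums of 15640 to 40068 and 10065 to 31017. Macrophage markers had 0 of 6 (limma, 1 at an unadjusted p below 0.05, Csf1r), with sums of 40255 to 47320 and 37863 to 46151. Of 4 measured markers of type 2 innate lymphoid cells, which carry GITR and ICOS, Il1rl1 passed as lower. Their sums, 1643 to 2014 and 1777 to 2240, were mostly Rora (1395 in PBS and 1638 in VEGF-C on average), which did not pass. Il13, Il5 and Areg of this list had no values, so the sums say little about these cells. Cardiomyocyte sums did not overlap, with 2136048 to 2918116 in PBS and 2928478 to 3176542 in VEGF-C, although 0 of 5 markers passed (limma; 2 at an unadjusted p below 0.05, Actc1 and Ryr2, both higher). Fibroblast sums did not overlap either (180164 to 247600 and 274994 to 331987), but they were mostly Col1a1, the 1 of 4 that passed, as higher (144800 and 233700 on average). The fibroblast markers Pdgfra (-0.20, unadjusted p = 0.0452) and Dcn (-0.12) had negative log2 fold changes and did not pass. Of 4 markers each, blood endothelium had 0 past the threshold (limma; 1 at an unadjusted p below 0.05, Cdh5), with overlapping sums of 51630 to 61300 and 58144 to 70441. Lymphatic endothelium had 1, Flt4, higher, with overlapping sums of 8720 to 11330 and 10214 to 14428. Flt4 passed narrowly (limma adjusted p = 0.0481) with overlapping groups, and its call was not followed over the alternatives. The part of these cells in the fall of Tnfrsf18 was not tested.

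Levels of different genes were compared per kilobase of exon, from the exons of all transcripts of a gene in the annotation. In PBS hearts the order was Tnfrsf4 (201 ± 46.2), Ctla4 (191 ± 86.1), Lag3 (190 ± 44.2), Tigit (178 ± 48.7), Tnfrsf18 (143 ± 22.7), Icos (122 ± 38.4), Pdcd1 (105 ± 20.7), Il2ra (62.9 ± 38.2), Foxp3 (51.9 ± 13.7) and Ikzf2 (26.3 ± 6.39), in normalized counts per kilobase (SD, n = 4). Neighbours in this order lay within the larger of their SDs except Pdcd1 and Il2ra, and Foxp3 and Ikzf2. In VEGF-C hearts Tnfrsf18, at 69.8 ± 14.8, came after Icos (107 ± 10.3) and beside Pdcd1 (73.6 ± 4.83), and Tigit was highest, at 216 ± 50.7.

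Among 13925 genes with a mean of at least 50 normalized counts, those whose log2 values followed the mean of the 10 genes most closely over the 8 libraries were Rgs1 (r = 0.962), a regulator of G protein signalling in lymphocytes, Itgb7 (0.958), an integrin of lymphocytes, Ctsz (0.951), a lysosomal protease, Mak16 (0.951) and Cplx3 (0.947). The mean of the 10 genes was 8.44, 8.01, 8.42 and 7.66 in PBS and 8.15, 7.79, 7.79 and 7.77 in VEGF-C on the log2 scale. Rgs1 was read at 159, 104, 161 and 71.3 in PBS replicates 1 to 4 and 97.5, 83.1, 88.5 and 86.2 in VEGF-C replicates 1 to 4 and was lowest in PBS replicate 4. None of the 5 passed the test between groups (limma adjusted p from 0.168 to 0.721). They are the highest of 13925 correlations over 8 libraries, where values this high can arise by chance. The correlations were not tested and do not show which cells carried the RNA.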

How the data were processed

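RNA of heart tissue was measured in 8 mice, 4 per group, grouped by the treatment label. Libraries were stranded mRNA libraries of RNA with a RIN over 8.0, per the labels' protocols. The submitters' processing notes name GRCm39, STAR 2.7.10a, Trim Galore 0.6.10, DESeq2 1.38.3, Subread 2.0.1 and featureCounts; the sources used here give neither strand setting nor annotation release. The authors' deposited values are log2 of normalized counts plus 4, and a normalized count is the reads of a gene over a factor for its library. On this reading 100% of values came out as whole reads. The tolerance was 0.01 reads and widened in proportion to the count for the highest counts, where the check is weak. The authors' log2 fold changes and adjusted p-values are deposited in the same table. Genes without values (38106) were left out.

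The deposited log2 values of 18835 genes were fitted with limma 3.58.1 (R 4.3.3) with 1 factor, treatment, moderated variances with a trend, and Benjamini-Hochberg adjustment over all genes, two-sided, threshold 0.05. The fit was also run on simulated counts with the same dispersion for every gene and genes independent of each other. That setting lacks the spread of members such as Il2ra (SD 60.8% of its PBS mean), so it is no check of the calls here. Alternatives were 3 scalings, log2(x + 1), a filter at a mean of 10 normalized counts, limma-voom on recovered reads, robust variances and leaving out each library. Genes named are the 10 members, list genes past the threshold (at most 4 a list), 15 fixed by name and the 5 genes most like the members. Of the 15 fixed by name, 14 had values. Nectin3, Ncr1, Flt3, Csf1r, Actc1, Ryr2, Cdh5, Pdgfra and Dcn were added after their values were seen. Cd2, Zap70, Btla and Cd200r1 were added in the same way. So were Rora, Ms4a1, Pax5, Gm16008 and the genes that overlap Foxp3 and Ikzf2. Members and lists were chosen with earlier results of these data known; 1 gene of the B cell list is not reported here and was left out of its count, sum and median. Gene lengths and overlaps come from GENCODE M21 (98.0% of IDs matched), an annotation of GRCm38, so no coordinates of genes are given.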

Additional observations from a re-analysis of the deposited data

Results flagged for a closer look

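Ctla4 had 406 normalized counts in VEGF-C replicate 1, apart from 253 to 274 in the other 3 VEGF-C hearts. Of 20 sets of 4 values examined (10 genes in 2 groups) this was the 1 with such an outlying library, and chance gives about 1 in 20. Without that library the log2 fold change of Ctla4 was -0.63 (limma adjusted p = 0.229), against -0.48 with it.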

How the results depend on the processing

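Tnfrsf18 kept its direction and its call under all 15 alternatives (limma adjusted p from 0.00248 to 0.0249). The number of the 10 genes past the threshold, 1, became 2 with library totals and ranged from 1 to 2 with each library left out; the added gene was Pdcd1. The count over all genes, 2949, ranged from 1684 to 2906 with each library left out and was 1956 without VEGF-C replicate 1 and 1684 without VEGF-C replicate 3, with fewer samples. The number of genes whose ratio to the Cd3 genes parted the groups, 3, ranged from 3 to 4 with each library left out. The fourth, without PBS replicate 3, was Tigit, which was higher in VEGF-C while the other 3 were lower.

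Signs changed for some fold changes that did not pass. With library totals Foxp3 was -0.011, Lag3 -0.185, Cd28 -0.138, Cd8a -0.132, Pvr -0.126 and Tnfsf18 -0.035, and with upper-quartile factors Lag3 was -0.05 and Cd28 and Cd8a -0.004. With each library left out the ranges were -0.036 to 0.283 for Foxp3, -0.171 to 0.114 for Lag3, -0.314 to 0.038 for Icos, -0.088 to 0.223 for Cd28, -0.204 to 0.027 for Cd86, -0.393 to 0.456 for Cd8a, -0.221 to 0.036 for Icosl, -0.589 to 0.047 for Il10, -0.317 to 0.747 for Tnfsf18 and -1.084 to 0.112 for Cplx3. The causes were not tested. No paired analysis was possible because the labels give the animals of both groups different numbers and the column numbers tie to no animal. Low counts limit Tnfsf18 and Il10.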
